A study of Homo sapiens with 2 samples.

Results

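The 10 genes described here are transcripts that carry small nucleolar RNAs (snoRNAs) in their introns, measured in HCT116, a cell line from a human colorectal carcinoma. They were SNHG1, SNHG3, SNHG4, SNHG5, SNHG6, SNHG7, SNHG8, SNHG12, SNHG15 and C17orf76-AS1, the last now named SNHG29, and were found by symbol among 21115 genes. They were chosen by name as known hosts with their ratios of CB-5083 to DMSO in view, so those ratios are a description and support no test. Cells were treated for 8 h with 1 µM CB-5083, an inhibitor of the ATPase p97 (VCP), or for 8 h with DMSO, its solvent. There was 1 library of polyadenylated RNA per treatment, so no difference has a replicate check, and HCT116 is a single line. The comparison asked how transcripts differed when p97 was inhibited.

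A host gene is transcribed and spliced like an mRNA, and its snoRNAs are cut from the excised introns. Box C/D snoRNAs guide ribose methylation and box H/ACA snoRNAs guide pseudouridylation, mostly of ribosomal RNA in the nucleolus. The spliced exons of many hosts encode no protein and are degraded by nonsense-mediated decay (NMD), a surveillance pathway that acts on translated RNAs. Several hosts, like ribosomal protein genes, start at a C followed by a run of pyrimidines (a terminal oligopyrimidine, or TOP, start), which couples translation of the RNA to growth signalling. The files describe 9 of the 10 genes as snoRNA hosts, and describe C17orf76-AS1 as an antisense RNA.

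Promoters were found for 8 of the 10 genes in RefSeq sequences on GRCh38.p14, and those of SNHG6 and SNHG15 were not analysed here. The 5 shown are those of the 3 genes with the highest ratios (SNHG5, SNHG1 and SNHG8), of SNHG7, whose level was about equal in both libraries, and of SNHG4, which had the lowest ratio. Each runs from 250 bases before to 50 bases after the annotated start, and the windows are chr6:85678684-85678983 on the minus strand, chr11:62855836-62856135 on the minus strand, chr4:118278512-118278811 on the plus strand, chr9:136728135-136728434 on the minus strand and chr5:139273851-139274150 on the plus strand. Capitals mark TATAA placed 40 to 15 bases before the start on the gene's own strand, a C followed by at least 5 pyrimidines within 10 bases of the start, and TGACG, the core of cyclic AMP response elements, on either strand.
SNHG5: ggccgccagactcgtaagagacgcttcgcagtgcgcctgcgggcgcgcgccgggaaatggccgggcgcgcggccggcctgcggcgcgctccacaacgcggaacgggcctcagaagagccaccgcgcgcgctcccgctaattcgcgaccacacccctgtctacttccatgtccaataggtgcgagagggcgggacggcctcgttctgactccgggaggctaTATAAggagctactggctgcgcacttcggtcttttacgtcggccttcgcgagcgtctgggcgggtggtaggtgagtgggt
SNHG1: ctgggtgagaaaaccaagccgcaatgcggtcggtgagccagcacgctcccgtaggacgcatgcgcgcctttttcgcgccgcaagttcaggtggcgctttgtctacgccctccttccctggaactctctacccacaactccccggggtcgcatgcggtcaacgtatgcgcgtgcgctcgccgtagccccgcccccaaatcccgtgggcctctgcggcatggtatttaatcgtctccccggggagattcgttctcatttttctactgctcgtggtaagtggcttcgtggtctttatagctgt
SNHG8: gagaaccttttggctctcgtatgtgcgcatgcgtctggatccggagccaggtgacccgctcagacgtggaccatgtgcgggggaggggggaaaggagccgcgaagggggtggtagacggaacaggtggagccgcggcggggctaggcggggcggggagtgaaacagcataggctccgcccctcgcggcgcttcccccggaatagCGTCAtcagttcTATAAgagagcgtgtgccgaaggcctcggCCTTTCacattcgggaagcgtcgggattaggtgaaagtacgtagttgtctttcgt
SNHG7: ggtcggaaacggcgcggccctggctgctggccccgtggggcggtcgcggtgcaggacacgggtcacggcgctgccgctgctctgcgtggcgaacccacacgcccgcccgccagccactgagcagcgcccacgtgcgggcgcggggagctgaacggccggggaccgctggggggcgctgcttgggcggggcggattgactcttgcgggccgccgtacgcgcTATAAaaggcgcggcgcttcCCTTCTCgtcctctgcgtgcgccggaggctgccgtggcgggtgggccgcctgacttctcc
SNHG4: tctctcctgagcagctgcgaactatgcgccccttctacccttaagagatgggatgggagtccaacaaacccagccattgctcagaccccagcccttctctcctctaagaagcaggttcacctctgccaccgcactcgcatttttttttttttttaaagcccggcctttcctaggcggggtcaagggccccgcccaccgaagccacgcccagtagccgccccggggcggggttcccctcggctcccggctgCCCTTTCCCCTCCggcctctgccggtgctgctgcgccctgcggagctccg

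The promoters of SNHG5, SNHG7, SNHG8 and SNHG12 held TATAA at that distance, 4 of 8, against 3.91% of 35116 promoters of the same length and 8 of 82 promoters of ribosomal protein genes. Among 8 promoters of other non-coding hosts 1 held it, that of ZNFX1-AS1. In SNHG5 and SNHG7 it began 30 bases before the start. The pyrimidine run was present in SNHG4, SNHG7, SNHG8, SNHG12 and C17orf76-AS1, 5 of 8, against 20.8% of all promoters and 60 of 82 of ribosomal protein genes, and in 1 of 8 promoters of other non-coding hosts, that of C6orf48. The window of SNHG5 reads ctttta at the start, a C followed by 4 pyrimidines, which the rule of at least 5 does not count. TGACG, searched on both strands, was present in SNHG8 and SNHG12, against 24.6% of all promoters, and the full palindrome TGACGTCA, which contains it, was in none of the 8, against 1.85%. TGATGNAA, a motif of ATF4 sites, was found in none of the 8 windows on either strand, against 3.62% of all promoters. SNHG1 held none of the marked motifs, and SNHG7 held TATAA and the pyrimidine run. A match is a run of letters in the window and not a measured site. Absence of the run does not show that a gene lacks a TOP start, since the rule depends on the annotated start and on the limit of 5 pyrimidines.

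Levels are in CPM, a gene's estimated count relative to its library's total after TMM scaling. Log2 ratios set CB-5083 over DMSO after 1 CPM was added to each, which understates differences of low genes. The CB-5083 library held 31997596 and the DMSO library 29273729 estimated counts, and a count of 0 allows up to 3 counts, or 0.106 CPM with CB-5083 and 0.091 CPM with DMSO. Most epithelial markers were present, with EPCAM at 501 CPM with CB-5083 and 433 CPM with DMSO. Of 7 such markers VIL1 had 0 counts with CB-5083 and 1 with DMSO. CDX2 was low, at 2.92 CPM with CB-5083 and 3.76 CPM with DMSO. CDH1, which encodes E-cadherin, was the 1 marker past 2-fold, at 243 CPM with CB-5083, against 66.7 CPM with DMSO, and the part of this in the host genes' values was not tested. Of 9 fibroblast, immune and endothelial markers 4 were at 0 in both libraries, and the highest, COL1A1, was at 3.48 CPM with CB-5083 and 2.52 CPM with DMSO. A gene was called when it reached 5 CPM in 1 library and differed at least 2-fold. Folds are without the pseudocount and carry 95% exact counting intervals, which cover counting error only.

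Of the 10 host genes 3 were at least 2-fold higher with CB-5083, none at least 2-fold lower and 7 neither. Over 9543 genes that reached the filter the shares were 7.22% higher and 4.91% lower, and since the genes were chosen with this contrast known, nothing is read from that difference. All 10 reached the 5 CPM filter. Their median log2 ratio was 0.77, with a range of -0.69 to 1.72, beside a median of 0.09 over the genes tested. Their summed level was 2570 CPM with CB-5083 and 1278 CPM with DMSO, a ratio of 2.01. Of the first sum 72.1%, and of the second 66.2%, came from SNHG1 and C17orf76-AS1. Without TMM scaling the 10 genes held 0.228% of the CB-5083 library and 0.144% of the DMSO library, a ratio of 1.59. In one culture per treatment, a difference in RNA per cell and one in the share of cells that hold the RNA cannot be told apart.

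SNHG5, which hosts the box C/D snoRNAs SNORD50A and SNORD50B (chromosome 6, 86386725 to 86388451 in hg19), had 5186 estimated counts or 182 CPM with CB-5083, against 1800 counts or 54.6 CPM with DMSO. This was the highest ratio of the 10, 3.34-fold (3.17 to 3.53). SNHG1, host of a cluster of box C/D snoRNAs that includes SNORD22 and SNORD25 to SNORD31 (chromosome 11, 62619460 to 62623360), was at 1015 CPM with CB-5083, against 390 CPM with DMSO, or 2.60-fold higher (2.55 to 2.66). It was the most abundant of the 10 in CPM with CB-5083, whereas with DMSO it stood below C17orf76-AS1. SNHG8, host of the box H/ACA snoRNA SNORA24 (chromosome 4, 119199917 to 119200978), was at 111 CPM with CB-5083, against 49.7 CPM with DMSO, or 2.23-fold higher (2.10 to 2.36). Its log2 ratio of 1.14 was just past the threshold, and with library totals in place of TMM it was 0.80, short of it. Under library totals 2 of the 10 were higher and none lower, beside 3.86% higher and 10.3% lower of the genes that reached the filter.

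Among the genes short of 2-fold, C17orf76-AS1, host of SNORD49A, SNORD49B and SNORD65 (chromosome 17, 16342301 to 16373962), was nearest to the threshold. It was at 838 CPM with CB-5083, against 456 CPM with DMSO (1.84-fold, 1.80 to 1.87). SNHG15, host of SNORA9 (chromosome 7, 45022627 to 45026259), was at 39.8 CPM with CB-5083, against 21.7 CPM with DMSO. Its fold of 1.84 was close to that of C17orf76-AS1 at a far lower level, and its counting interval of 1.67 to 2.02 reached past 2. SNHG12, host of SNORA44, SNORA61, SNORA16A and SNORD99 (chromosome 1, 28905050 to 28908383), was at 144 CPM with CB-5083, against 88.5 CPM with DMSO (1.63-fold, 1.55 to 1.70). SNHG6, host of SNORD87 (chromosome 8, 67834165 to 67837777), was at 158 CPM with CB-5083, against 119 CPM with DMSO (1.33-fold, 1.28 to 1.39). At a threshold of 1.5-fold 6 of the 10 were higher, against 17.4% of the genes tested, and at 4-fold none was higher or lower, against 1.21% higher and 0.356% lower.

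SNHG7, host of SNORA17 and SNORA43 (chromosome 9, 139615818 to 139622636), was at 36.9 CPM with CB-5083 and 34.7 CPM with DMSO. Its fold of 1.07 had an interval of 0.979 to 1.16, the only one of the 10 that held 1. Its log2 ratio of 0.09 was close to the median of the genes tested and was -0.24 with library totals. SNHG3, host of the H/ACA snoRNAs SNORA73A and SNORA73B (chromosome 1, 28832455 to 28837404), was at 40.9 CPM with CB-5083, against 55.2 CPM with DMSO, 1.35-fold lower (1.25 to 1.45). SNHG4, host of SNORA74A (chromosome 5, 138609441 to 138618873), was the least abundant, with 144 estimated counts or 5.06 CPM with CB-5083, against 289 counts or 8.77 CPM with DMSO. It was 1.73-fold lower (1.41 to 2.13), and 1 of 10 was lower at 1.5-fold, against 12.5% of the genes tested. The ratios of SNHG3 and SNHG4 were below 0 under each of the 4 scalings tried.

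**Figure D1:**
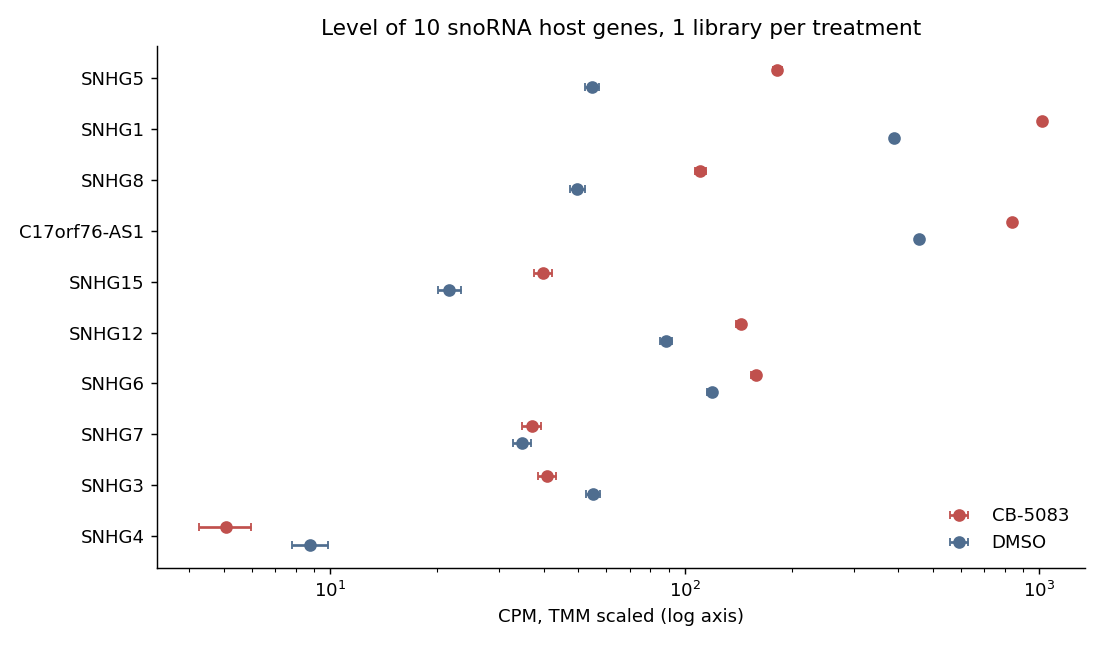
Level of each host gene in CPM (log axis) in the CB-5083 library (red, upper point) and the DMSO library (blue, lower point), with 95% exact Poisson intervals of the estimated counts, ordered by log2 ratio. The red point lies right of the blue one from SNHG5 down to SNHG6, the points of SNHG7 lie close together at 36.9 and 34.7 CPM, and for SNHG3 and SNHG4 the red point lies to the left.

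Levels per kilobase of transcript used the median length of the matching GENCODE transcripts. For SNHG1, SNHG5, SNHG6, SNHG12 and SNHG15 only 1 transcript matched. None matched for SNHG3 and SNHG4, where the median over all transcripts of the gene was taken. C17orf76-AS1 had the highest level, 1098 CPM per kilobase with CB-5083 and 598 with DMSO. SNHG1 followed in both libraries, at 682 CPM per kilobase with CB-5083 and 262 with DMSO. SNHG5 was at 424 CPM per kilobase with CB-5083 and 127 with DMSO, next after SNHG1 with CB-5083 but below SNHG6 and SNHG12 with DMSO, which were at 186 and 130. The order depends on the length assumed, since with the shortest annotated transcript of each gene SNHG1 was at 4228 and C17orf76-AS1 at 2703 CPM per kilobase with CB-5083, and with the longest SNHG6, at 244, stood above SNHG5, at 177. By median length SNHG4 had the lowest level, 7.46 CPM per kilobase with CB-5083 and 12.9 with DMSO.

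Other non-coding hosts were spread widely too, with log2 ratios of -0.32 to 2.15. Of 15 such genes 11 were matched to a row and 10 were measured, that is had a mean of at least 1 CPM. Past 2-fold, 4 were higher and none lower, and the median log2 ratio was 0.57 beside 0.04 over all 11964 measured genes. That median was 1.24 among those of at least 5 CPM, the filter that the 10 host genes pass, and 0.24 under library totals, where 4 were still higher. ZNFX1-AS1, now named ZFAS1, host of the SNORD12 family, was at 485 CPM with CB-5083, against 109 CPM with DMSO (4.47-fold, 4.30 to 4.63), above every one of the 10 genes. C6orf48, now SNHG32, host of SNORD48 and SNORD52, was at 281 CPM with CB-5083, against 71.1 CPM with DMSO (3.95-fold, 3.77 to 4.14). EPB41L4A-AS1, host of SNORA13, was at 39.6 CPM with CB-5083, against 10.1 CPM with DMSO (3.91-fold, 3.45 to 4.43). GAS5, a well-studied NMD target that hosts a cluster of box C/D snoRNAs, was at 899 CPM with CB-5083, against 272 CPM with DMSO (3.31-fold, 3.23 to 3.39). Its promoter window held no C followed by at least 5 pyrimidines within 10 bases of the annotated start.

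The 6 others were within 2-fold. LOC388796, matched to SNHG17 by accession, was at 22.2 CPM with CB-5083, against 12.8 CPM with DMSO (1.74-fold, 1.54 to 1.97), and LOC100507246, matched likewise to SNHG16, at 368 CPM with CB-5083, against 281 CPM with DMSO (1.31-fold, 1.27 to 1.35). SNHG13, now named DANCR, was at 31.9 CPM with CB-5083, against 40.1 CPM with DMSO, a fold of 0.797 (0.732 to 0.868). SNHG10, SNHG11 and LINC00338, now SNHG20, had between 1.99 and 5.89 CPM in either library, and the intervals of their folds held 1. SNHG9, not measured at this limit, had 4 counts with CB-5083 and 18 with DMSO (0.258-fold, 0.063 to 0.782).

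**Figure D2:**
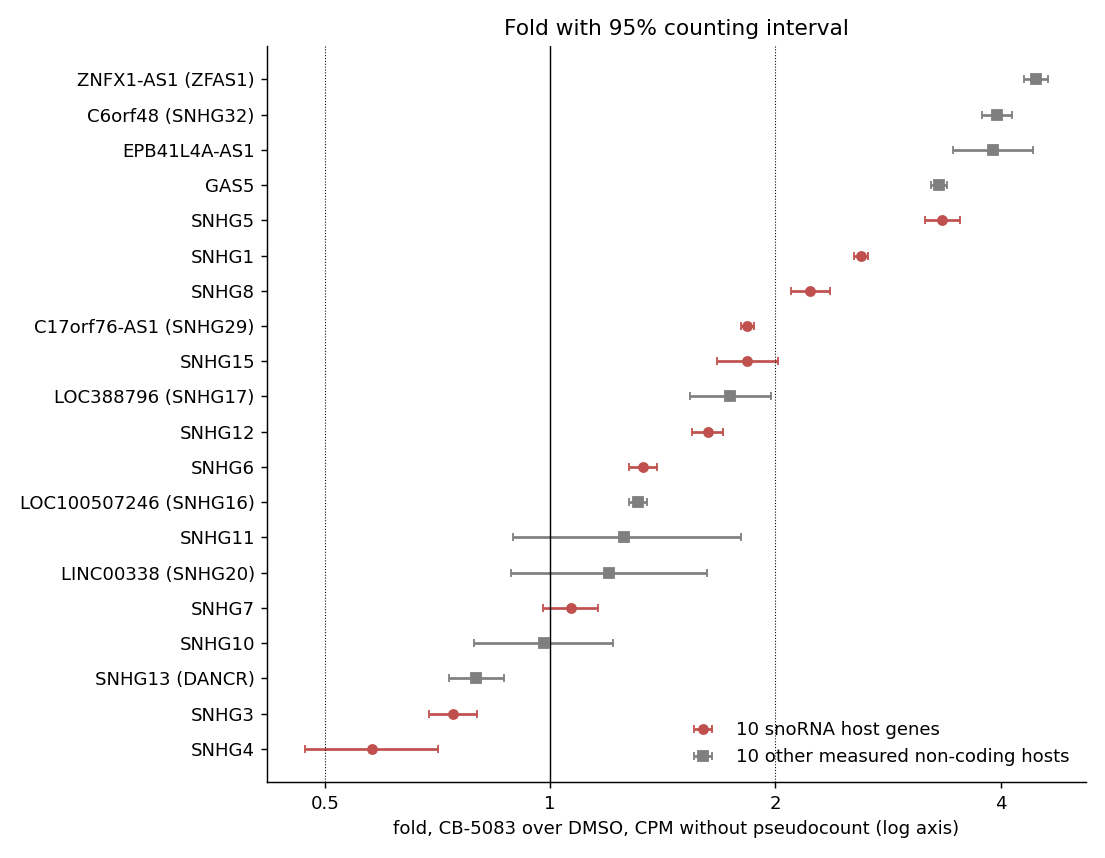
Fold of CB-5083 over DMSO (log axis, CPM without pseudocount) for the 10 snoRNA host genes (red circles) and 10 other measured non-coding hosts (grey squares), with 95% counting intervals; dotted lines mark 2-fold. Both kinds spread over the range, with 4 grey and 3 red points past 2-fold and SNHG3 and SNHG4 at the low end.

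Of 52 measured protein-coding hosts, 1 passed 2-fold upward and none downward, and the median log2 ratio was 0.47. Under library totals none passed upward and 1 downward, with a median of 0.13. HSPA9, the mitochondrial HSP70 and host of SNORD63, was at 1953 CPM with CB-5083, against 914 CPM with DMSO (2.14-fold, 2.11 to 2.17), and its log2 ratio under library totals was 0.75, short of the threshold. HSPA8, the constitutive cytosolic HSP70 and host of SNORD14, had the lowest ratio, at 2349 CPM with CB-5083, against 4399 CPM with DMSO, a log2 ratio of -0.90 that was -1.25 under library totals. Of 81 measured ribosomal protein genes none passed 2-fold, with a median of 0.45 and a range of -0.13 to 0.93, and of 15 TOP mRNAs of translation factors none passed it, with a median of 0.56 and a range of 0.29 to 0.81. Under library totals these medians were 0.10 and 0.22, and again none passed 2-fold. The list of protein-coding hosts shares 25 genes with the ribosomal protein genes and 3 with the TOP mRNAs, so these counts are not independent. No test of the difference between these medians and that of the 10 host genes was run.

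Proteins that bind snoRNAs or assemble their particles stayed within 2-fold with 1 exception among 21 measured, with a median of 0.28 that was -0.052 under library totals. ZNHIT6, an assembly factor of box C/D particles, was at 144 CPM with CB-5083, against 67.8 CPM with DMSO (2.12-fold, 2.01 to 2.23), but its log2 ratio under library totals was 0.73, so none of the 21 then passed 2-fold. DKC1, the pseudouridine synthase of H/ACA particles, was at 356 CPM with CB-5083, against 230 CPM with DMSO, and SHQ1, its chaperone, at 46.2 CPM with CB-5083, against 63.1 CPM with DMSO. None of 20 NMD factors passed 2-fold in either direction, and their median of 0.18 was -0.16 under library totals. XRN1, the exonuclease that degrades decapped RNA, had the highest ratio, at 74.5 CPM with CB-5083, against 49.2 CPM with DMSO, and SMG8, a regulator of the NMD kinase SMG1, the lowest, at 44.4 CPM with CB-5083, against 60.9 CPM with DMSO.

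Other non-coding genes were set beside the hosts. Of 247 measured genes whose accessions are all of the RefSeq non-coding kind, 14 were higher, 12 lower and 221 neither. The median log2 ratio was -0.21 beside 0.04 over all measured genes. Under library totals 8 were higher and 24 lower of 255 measured, and the median was -0.49. Among those of at least 5 CPM the median was -0.064. The list holds 3 of the 10 host genes, SNHG3, SNHG6 and SNHG8. The other host genes have no RefSeq coding accession either, but carry some accession that is not of the RefSeq non-coding kind. Among 12 measured long non-coding RNAs named for comparison 2 were higher and 10 neither (median 0.42), and under library totals 1 was higher (median 0.10). MIR22HG, host of a microRNA, was at 16.0 CPM with CB-5083, against 1.57 CPM with DMSO, and MALAT1, a nuclear RNA of speckles, at 167 CPM with CB-5083, against 77.7 CPM with DMSO (2.15-fold, 2.05 to 2.26), where MALAT1 is the call lost under library totals. TUG1 was at 107 CPM with CB-5083, against 152 CPM with DMSO. As landmarks of the response, HSPA5, the main chaperone of the endoplasmic reticulum, was 16.6-fold higher and DDIT3, which encodes CHOP, 57.0-fold higher, well above any host gene. TRIB3, 9.81-fold higher, and ASNS, 6.74-fold higher, were also above every host gene. XBP1 was 3.25-fold higher, within the range of the host genes. ATF4, the transcription factor of the integrated stress response, was 2.10-fold higher, within the range of the host genes, with a log2 ratio of 0.73 under library totals.

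**Figure D3:**
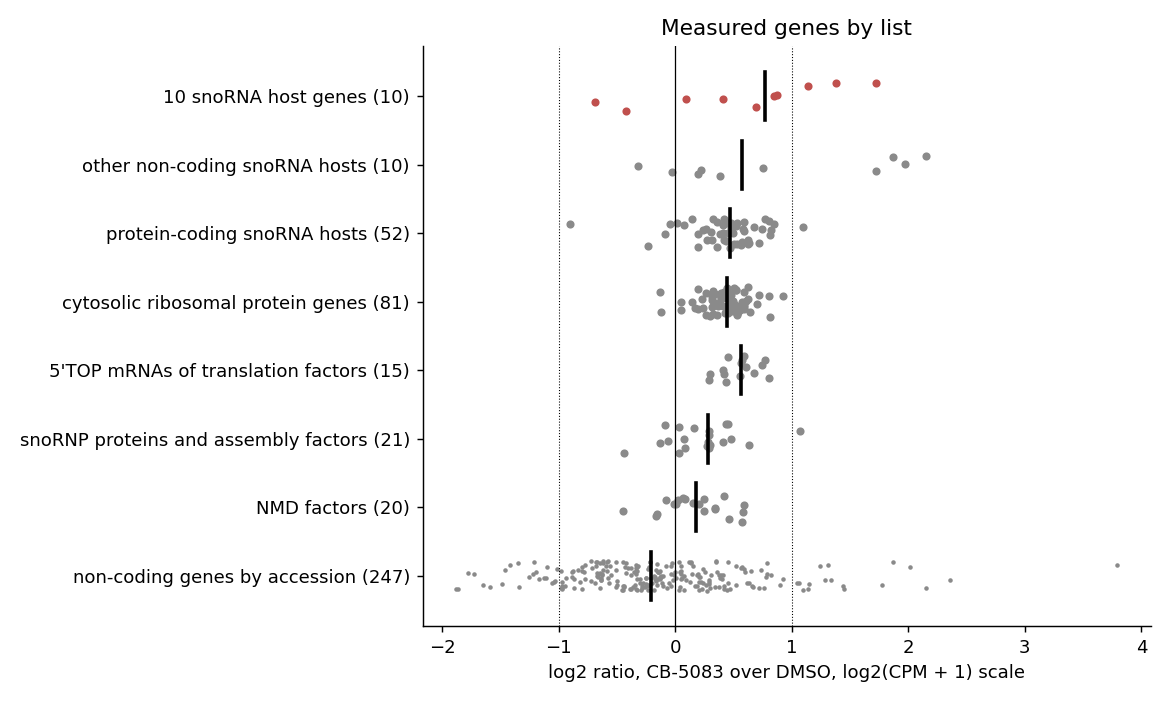
Log2 ratio of CB-5083 over DMSO on the log2(CPM + 1) scale for each measured gene of 8 lists, with the number measured in brackets; black bars are medians and dotted lines mark 2-fold. The 10 snoRNA host genes (red, median 0.77) and other non-coding hosts (median 0.57) spread widely, whereas ribosomal protein genes lie between -0.13 and 0.93. Wide spread is not particular to non-coding hosts, since non-coding genes by accession range from -1.88 to 3.79. Protein-coding hosts range from -0.90 to 1.09.

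Several host genes overlap or adjoin coding genes. By the coordinates of the files, SNHG3 starts at the same base as RCC1, which encodes the exchange factor of the GTPase Ran, on the same strand, and SNHG4 starts at the same base as MATR3, an RNA-binding protein of the nuclear matrix, again on the same strand. RCC1 was at 77.4 CPM with CB-5083, against 104 CPM with DMSO, a log2 ratio of -0.43 beside -0.42 for SNHG3. MATR3 was at 649 CPM with CB-5083, against 686 CPM with DMSO, a log2 ratio of -0.08 beside -0.69 for SNHG4. The estimated counts of SNHG3 and SNHG4 were not whole numbers, which RSEM gives when reads are shared between transcripts of different genes, so the values of both are uncertain. Those of SNHG5, C17orf76-AS1, SNHG12 and SNHG6 were not whole in either library, and those of SNHG1 and SNHG7 were not whole with DMSO. Over all genes above 0, 55.4% of values with CB-5083 and 55.1% with DMSO were whole within 0.02. A fraction does not tell how many reads were shared, so these values are uncertain to an unknown degree. The 2 genes with ratios below 0 were the 2 that share their first base with a coding gene, and the part of that in the result was not tested. Estimated counts of SNHG8 and SNHG15 were whole in both libraries within 0.02.

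SLC3A2, the heavy chain shared by several amino acid transporters, lies 124 bases from SNHG1 on the opposite strand, the 2 genes running away from each other. It was at 213 CPM with CB-5083, against 87.9 CPM with DMSO (2.42-fold, 2.32 to 2.53), close to the 2.60-fold of SNHG1. PRSS12, a serine protease, lies 215 bases from SNHG8 on the opposite strand with its end facing the end of SNHG8. It was at 9.82 CPM with CB-5083, against 20.6 CPM with DMSO, a log2 ratio of -0.996 where SNHG8 had 1.14. TRNAU1AP, a protein that binds selenocysteine tRNA, overlaps only the last few bases of SNHG12 on the opposite strand. TRNAU1AP ends at base 28905057 of chromosome 1, and SNHG12 spans 28905050 to 28908383. TRNAU1AP was at 23.0 CPM with CB-5083, against 12.3 CPM with DMSO (1.88-fold, 1.66 to 2.13), with whole counts in both libraries. Libraries were stranded per the labels' kit, but use of the strand in counting was not given in the sources used here, so reads of overlapping opposite genes may not be told apart.

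C17orf76-AS1 overlaps FAM211A on the opposite strand, which had 11 counts with CB-5083 and 16 with DMSO. SNHG6 overlaps C8orf45, which had 5 counts with CB-5083 and 4 with DMSO, and SNHG7 overlaps FAM69B, which had 10 counts with CB-5083 and 32 with DMSO. These neighbours held few counts, and each of the 3 host genes had at least 1050 in either library. The nearest gene to SNHG15 was 3923 bases away and that to SNHG5 33682 bases.

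**Figure D4:**
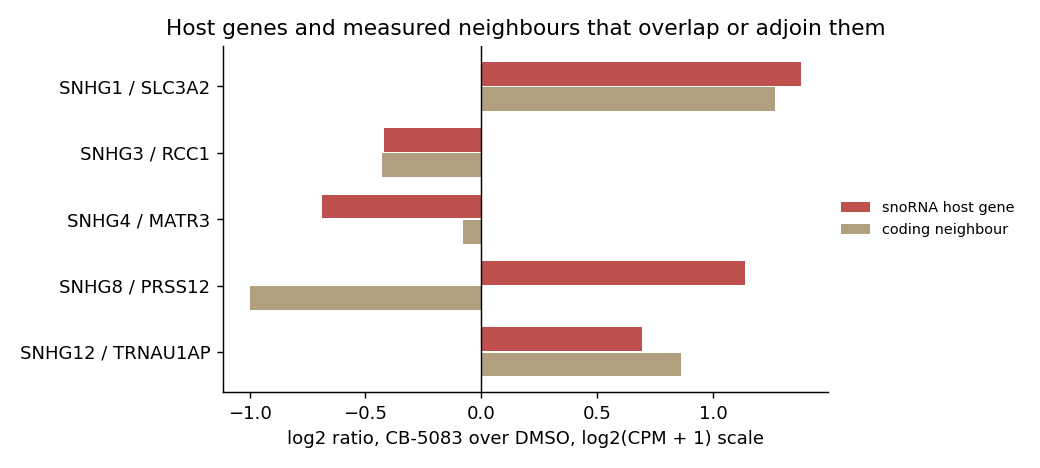
Log2 ratio of CB-5083 over DMSO on the log2(CPM + 1) scale for each host gene (red) and each measured coding neighbour that overlaps it or lies within 215 bases (tan). SNHG1 and SLC3A2, SNHG3 and RCC1, and SNHG12 and TRNAU1AP lie on the same side at similar size, SNHG4 and MATR3 on the same side at -0.69 and -0.08, and SNHG8 and PRSS12 on opposite sides.

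The snoRNAs themselves were not measured by these libraries of polyadenylated RNA. Of 25 snoRNAs named for the 10 hosts, 6 had a row, and 5 of these lay inside the host by the files' coordinates (SNORD65 was not compared). All 6 together had 22 estimated counts with CB-5083 and 21 with DMSO, against 73055 and 42130 for the 10 host genes. The highest, SNORD22, had 12 counts with CB-5083 and 18 with DMSO, over a row of 1376 bases inside SNHG1, which is longer than a snoRNA and also covers sequence of the host. The level of the spliced host therefore has no measured counterpart in its snoRNAs here.

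**Figure D5:**
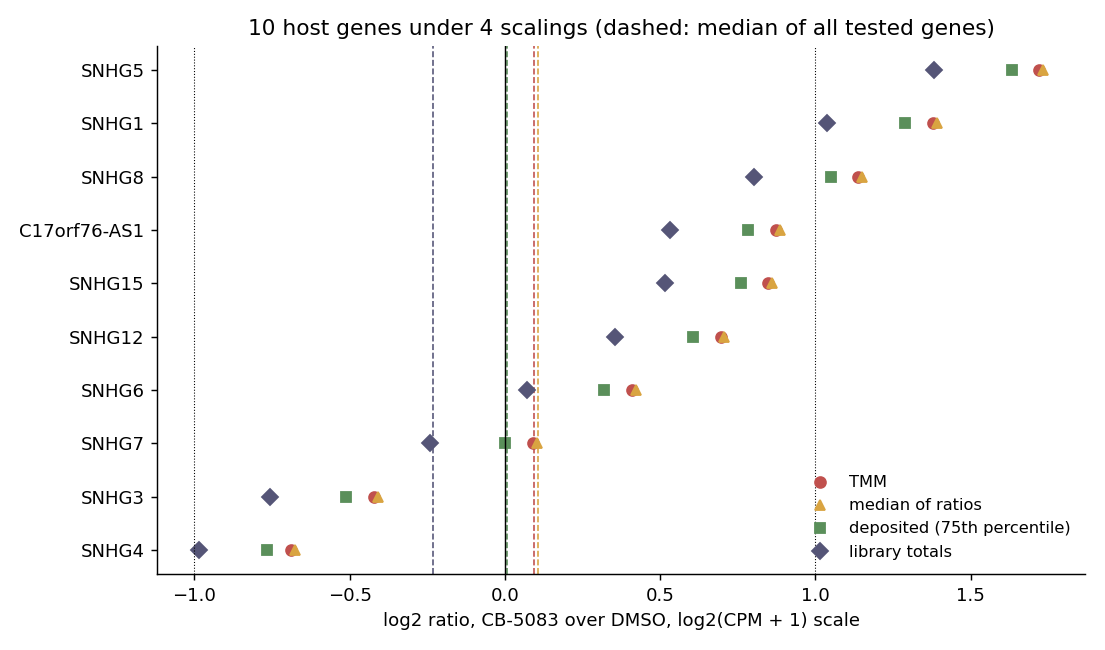
Log2 ratio of each host gene on the log2(CPM + 1) scale under 4 scalings, with the median of all tested genes under each as a dashed line; dotted lines mark 2-fold. Library totals move every gene left by about as much as the median of all genes, to -0.23, which puts SNHG8 at 0.80 and SNHG7 at -0.24, while the order of the genes stays.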

How the data were processed

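RNA sequencing was made from 1 CB-5083 and 1 DMSO library, grouped by the sample titles. The authors deposited a scaled signal for each gene, although the columns are named counts. RSEM 1.2.0 and hg19 are named per the submitters' processing notes, and by the values each library had been brought to a 75th percentile near 1000 (999.89 with CB-5083, 999.73 with DMSO). An aligner was not given in the sources used here, nor was the use of strand. Of 21116 rows 1 held no value.

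Division by the commonest low step (1.18 with CB-5083, 1.08 with DMSO) gave estimated counts, and 78.3% and 76.6% of values of at most 5 were then whole to within 0.02. CPM used TMM factors of 0.888 for CB-5083 and 1.13 for DMSO (trims of 30% and 5%). Folds have Clopper-Pearson intervals and levels Poisson intervals, both at 95%. With 1 library per group no test between treatments was made.

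Genes and lists were chosen with earlier results of these data known. The rule for named genes takes the 10 host genes, every measured other non-coding host, the 2 highest, 2 lowest and most expressed of each list, and the nearest neighbours, of which those that bear on the host genes are given. Not every gene that the rule takes is named in the text, and for some lists only counts, medians or ranges are given. SNHG9 and the snoRNA rows were added after their values were seen. Neighbour rows spanning over 5 Mb were left out. Transcript lengths and strands came from GENCODE, promoters and current names from RefSeq. Scaling, pseudocount, filter, fold threshold and source file were varied. The calculations were tested on simulated data. Tools were matplotlib 3.10.9, scipy 1.17.1, pandas 2.3.3 and numpy 2.4.6 under Python 3.11.15.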

Additional observations from a re-analysis of the deposited data

How the results depend on the processing

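With library totals in place of TMM the median log2 ratio of the 10 host genes was 0.44 and that of all tested genes moved by -0.33. Then 2 host genes, SNHG1 and SNHG5, were at least 2-fold higher and none lower, against 3.86% and 10.3% of 9623 genes. At a threshold of 1.5-fold 6 were higher and 1 lower, against 17.4% and 12.5% of 9543 genes. At 4-fold 0 were higher and 0 lower, against 1.21% and 0.356% of the same genes. Under library totals the median of snoRNP proteins was -0.052 and that of NMD factors -0.16, both below 0. A wider set of non-coding genes, defined after seeing the data as having a non-coding but no coding accession and holding all 10 host genes, had a median of -0.11 over 472 measured genes, which was 0.090 among those of at least 5 CPM. SNHG7 was the only host gene whose ratio changed sign, at -0.24 with library totals. The counts at 2-fold were 3 higher and 0 lower under median-of-ratios scaling, the deposited scaling, both other pseudocounts and both other filters. Shares over all genes are not given for these settings, so nothing is read from these counts. No paired analysis was possible because each group has 1 library, and for the same reason no replicate could be left out. SNHG4, at 144 and 289 counts, is the value that depth limits most.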

Other observations

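Of 104 rows named for snoRNAs or small Cajal body RNAs, 43 were above 0 with CB-5083 and 42 with DMSO, and 2 had a mean of at least 1 CPM. SNORA8, hosted by TAF1D, had 812 estimated counts with CB-5083 and 615 with DMSO (1.53-fold, 1.38 to 1.70), over a row that spans 1985 bases of chromosome 11. SNORA33, hosted by RPS12, had 718 with CB-5083 and 707 with DMSO (1.18-fold, 1.06 to 1.31), over a row of 2045 bases of chromosome 6. Both spans are longer than a snoRNA, so these rows also cover sequence of the hosts. TAF1D itself, a subunit of an RNA polymerase I factor, was at 522 CPM with CB-5083, against 289 CPM with DMSO (1.81-fold, 1.76 to 1.85).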
